A study of Homo sapiens with 6 samples.

Results

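The nuclear lamina and the inner nuclear membrane were followed through 10 genes in the established human breast cancer line MDA-MB-231BR, which homes to brain. The genes were taken by symbol from the 17721 genes of the deposited table: the lamins LMNA, LMNB1 and LMNB2, the membrane proteins NRM, LBR, EMD, TMPO and LEMD3, and the bridge proteins SUN1 and SUN2. NRM was chosen by its lower level under the ACSS2 hairpin in these data, so its difference between the hairpins is a description and carries no test. The other 9 genes were added for their place in the nuclear envelope, with results of the same comparison known. Their calls come from a fit over all genes tested. All 10 passed the filter on low counts.

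The study used RNA from cells stably expressing an shRNA against ACSS2 (3 libraries) and from cells stably expressing a control shRNA (3 libraries). ACSS2 is the enzyme that makes acetyl-CoA from acetate outside mitochondria. Both hairpins were delivered by lentivirus into the same line, followed by antibiotic selection, and RNA was taken from cells in monoculture. The labels call the libraries biological replicates and give a batch tag, so that library 1, 2 or 3 of one hairpin shares its number with one library of the other. The labels do not state how many ACSS2 hairpin sequences were used.

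The lamina is a mesh of lamin filaments under the inner nuclear membrane. A-type lamins (lamin A and C, both from LMNA) and B-type lamins (from LMNB1 and LMNB2) give the nucleus its stiffness and hold silent chromatin at its edge. Emerin (EMD), the LAP2 proteins (TMPO) and MAN1 (LEMD3) share the LEM domain, through which they bind the chromatin protein BAF. The lamin B receptor (LBR) ties B-type lamins and heterochromatin to the membrane and is also a sterol reductase. SUN1 and SUN2 span the inner membrane and join the lamina to nesprins, and through them to the cytoskeleton. Nurim (NRM) is a multi-pass protein of the inner membrane that is held there tightly. In breast cancer cells the lamina is studied because nuclear stiffness limits passage through narrow spaces.

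Library totals were 15048275 to 17520166 expected counts under the ACSS2 hairpin and 16093086 to 18608124 under the control hairpin, and the 10 genes had 136 to 8826 counts per library. The labels were checked by ACSS2 itself, which had 11.1, 50.5 and 88.7 CPM (read counts scaled to library size with TMM factors) in ACSS2 shRNA libraries 1, 2 and 3, against 76.3, 71.2 and 163.6 CPM in control shRNA libraries 1, 2 and 3. Within each number ACSS2 was lower under its hairpin, but the library labelled ACSS2 shRNA 3 lies above control libraries 1 and 2. Libraries of the same number deviated together across genes, and 38.7% of genes differed between the numbers. The cells expressed VIM at 5449 to 6820 TPM (a level scaled by gene length and library size) under the ACSS2 hairpin and 5450 to 5523 TPM in controls. ESR1 and PGR stayed at or under 1.21 TPM in all 6 libraries. Summed markers of blood cells were 3.02 to 7 TPM under the ACSS2 hairpin and 1.26 to 3.69 TPM in controls, with CD14 the highest of them in each library. Those of endothelium were 2.57 to 7.44 TPM under the ACSS2 hairpin and 1.81 to 2.43 TPM in controls. The neural and glial list had 31.7 to 76.7 TPM under the ACSS2 hairpin and 41.7 to 94.98 TPM in controls, mostly from MBP, and SNAP25 was at 0. In the paired fit described below, 1 of 1 tested blood marker (CD14) and 1 of 3 endothelial markers (CDH5) were higher under the ACSS2 hairpin, and 2 of 2 neural markers (MBP and RBFOX3) and 1 of 6 basal markers (CD44) were lower. The part of these marker levels in the results was not tested. The basal markers summed to 7207 to 8615 TPM under the ACSS2 hairpin and to 6993 to 7467 TPM in controls, and luminal receptor genes to 29.3 to 45.9 TPM under the ACSS2 hairpin and 29.2 to 34.5 TPM in controls.

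NRM showed by far the widest gap between hairpins among the 10 genes. It had 15.2, 13.2 and 15.9 TPM in ACSS2 shRNA libraries 1, 2 and 3, against 81.6, 49.1 and 31.7 TPM in control shRNA libraries 1, 2 and 3. All ACSS2 shRNA libraries lie below all controls, and they lie close together: the highest is 1.29-fold above the lowest in CPM, against 2.49-fold among controls. On the CPM scale NRM averaged 11.6 ± 1.55 under the ACSS2 hairpin and 45.1 ± 21.6 in controls (SD, n = 3 each). The log2 fold change was -1.96 (SE 0.34) without and -1.87 (SE 0.23) with the replicate number in the model. The paired value is a 3.66-fold lower level. Within numbers 1, 2 and 3 the log2 ratio was -2.64, -1.87 and -1.06.

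NRM (gene ID 11270) lies on the minus strand of chromosome 6 at 6p21.33, from 30688047 to 30691420 (GRCh38, GENCODE v29). The table gives it a longer span, 30686772 to 30691420, which reaches into its neighbour PPP1R18, a regulatory subunit of protein phosphatase 1, so reads at that edge could be assigned to either. PPP1R18 went the other way: 373, 433 and 505 CPM in ACSS2 shRNA libraries 1, 2 and 3, against 259.9, 247.6 and 432 CPM in controls 1, 2 and 3 (paired log2 fold change 0.52, SE 0.13, edgeR adjusted p = 0.0135, unpaired adjusted p = 0.431). The neighbour on the other side, MDC1, a scaffold of the DNA damage response, had 86.3, 84.2 and 86.6 CPM under the ACSS2 hairpin, against 192, 133 and 114 CPM in controls (paired log2 fold change -0.74, SE 0.14, adjusted p = 0.00254, unpaired adjusted p = 0.171).

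The sequence TGGGTC was looked for on the sense strand of the 3′ untranslated regions (UTRs) because it had been found often in transcripts lower under this hairpin, so it was chosen with these data in view. NRM holds 1 copy, LMNB2 2, TMPO 1 and LEMD3 1, in the longest annotated 3′ UTR of each gene. LMNA, LMNB1, LBR, EMD, SUN1 and SUN2 hold none. Of the 12789 genes tested with an annotated 3′ UTR, 29% hold it, as do 44.1% of the genes called lower and 26.3% of those called higher in the paired fit described below. The matches stand here within 30 bases of transcript sequence from GENCODE v29, with TGGGTC in capitals. NRM, chr6:30688498-30688527, minus strand, 3′ UTR, 146 bases past the stop codon:
NRM: gactttattctcTGGGTCcagctccatacc
LMNB2, minus strand, 3′ UTR, chr19:2430765-2430794 and chr19:2429151-2429180, 129 and 1743 bases past the stop codon:
LMNB2 first: agaacgtgtgggTGGGTCtcccccagccct
LMNB2 second: gggttctgggggTGGGTCttggtgatcttg
TMPO, plus strand, 3′ UTR, chr12:98549846-98549875, 2000 bases past the stop codon:
TMPO: ctgcagaatgagTGGGTCcttgcaaagtga
LEMD3, plus strand, 3′ UTR, chr12:65247435-65247464, 1122 bases past the stop codon:
LEMD3: tacttgcaatttTGGGTCatgaaagtttgc
A match of 6 bases is a description of the letters and does not show a target site. Among the members with a match, NRM, LMNB2 and TMPO were lower under the ACSS2 hairpin in the paired fit and LEMD3 was not called. Among those without, LBR was lower and LMNA, LMNB1, EMD, SUN1 and SUN2 were not called. The 3′ UTRs searched were 614 bases long in NRM, 2745 in LMNB2, 2521 in TMPO and 2002 in LEMD3. In the members without a match they were 326 (EMD) to 1801 bases (LBR) long. Whether the match or the UTR length plays a part was not tested.

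**Figure D1:**
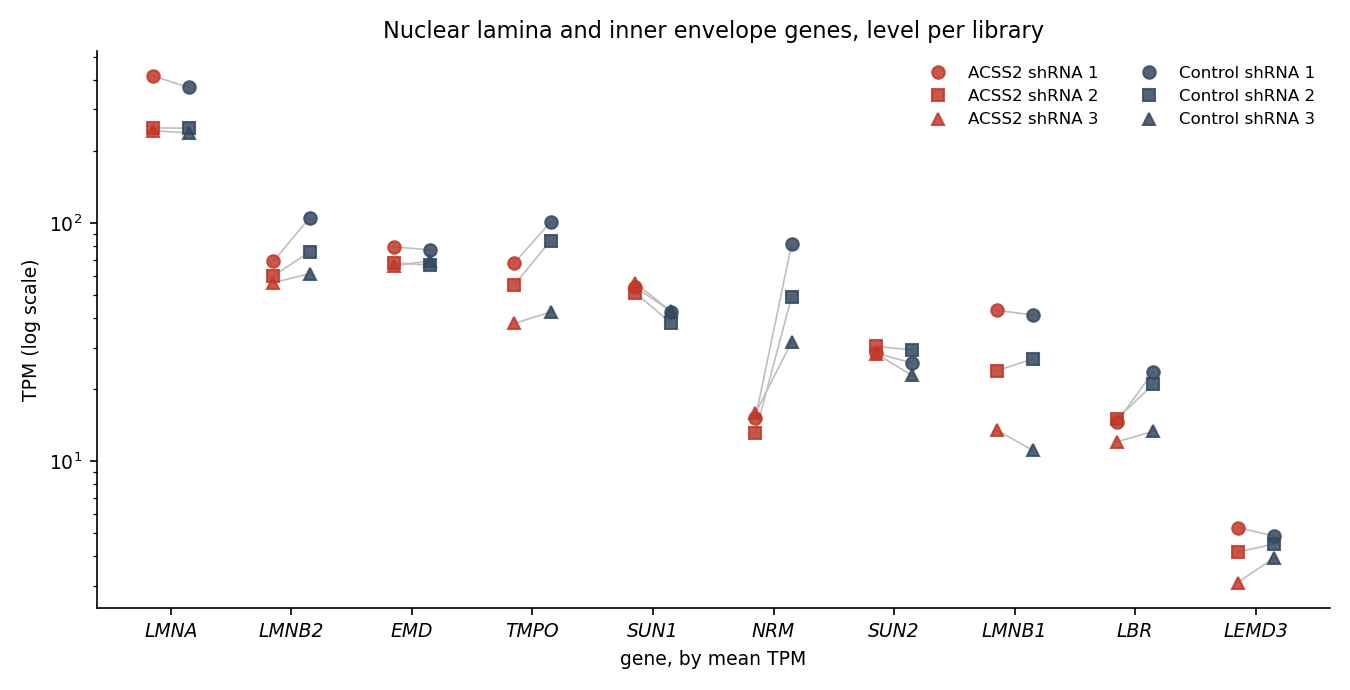
Level of each of the 10 genes in TPM on a log axis, genes ordered by mean, ACSS2 shRNA libraries in red left of control shRNA libraries in dark blue, with a grey line joining libraries of the same number. NRM is the gene whose ACSS2 shRNA points (13.2 to 15.9 TPM) sit well below its control points (31.7 to 81.6 TPM), and LMNB1 spreads from 11.1 to 43.0 TPM by number rather than by hairpin.

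The other members were compared in 2 fits. The unpaired fit compares the hairpins directly and called 0.0692% of the 13003 genes tested, 0.0461% lower and 0.0231% higher. The paired fit adds the replicate number as a block and called 25.1% of them, 12.4% lower and 12.7% higher. A call is an edgeR quasi-likelihood adjusted p under 0.05. Of the 9 members other than NRM, the unpaired edgeR fit called 0, with 1 (LBR) at an unadjusted p under 0.05, and unpaired DESeq2 called none. The paired fit called 3 of the 9 lower (LMNB2, LBR and TMPO), none higher and left 6 uncalled. Because the comparison was in view when the genes were listed, nothing is read from these counts against their background. The median log2 fold change of the 9 was -0.11 in the paired fit, against 0.02 over all genes tested. In bulk RNA, fewer cells that express a gene and less RNA per cell cannot be told apart.

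Of the 3 lamin genes, LMNB2 alone was called, in the paired fit. LMNB2 (gene ID 84823, chr19:2427638-2456996, minus strand, GRCh38) had 69.1, 60.0 and 56.2 TPM in ACSS2 shRNA libraries 1, 2 and 3, against 104.9, 75.6 and 61.3 TPM in controls 1, 2 and 3. The groups overlap in TPM, since ACSS2 shRNA library 1 lies above control library 3. In CPM they do not overlap (highest 165.7 under the ACSS2 hairpin, lowest 167.3 in controls). The paired log2 difference was -0.46 (SE 0.13, edgeR adjusted p = 0.0222) and the unpaired one -0.50 (SE 0.22, adjusted p = 0.363). The paired value was -0.30 (adjusted p = 0.0778) without number 1 and -0.52 (adjusted p = 0.0574) without number 2, and the call was lost in both.

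LMNA, the source of lamins A and C (gene ID 4000, chr1:156082573-156140089, plus strand), had 414, 251 and 245 TPM in ACSS2 shRNA libraries 1, 2 and 3, against 371, 250.4 and 239 TPM in controls 1, 2 and 3. The groups interleave, and the paired log2 difference was -0.09 (SE 0.11, edgeR adjusted p = 0.578). LMNB1 (gene ID 4001, chr5:126776623-126837020, plus strand) had 43.0, 23.96 and 13.5 TPM under the ACSS2 hairpin, against 41.1, 26.8 and 11.1 TPM in controls. The paired log2 fold change of LMNB1 was -0.06 (SE 0.12, adjusted p = 0.773). The high and low libraries of both genes are the same for the 2 hairpins: library 1 is highest, and for LMNB1 library 3 is lowest. Both signs turn positive on the TPM scale (0.065 for LMNA and 0.056 for LMNB1 with limma on log2(TPM + 1)), where the median of all genes is at 0.11. Gene-level values cannot separate lamin A from lamin C.

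LBR (gene ID 3930, chr1:225401502-225428925, minus strand) had 14.7, 15.05 and 12.05 TPM in ACSS2 shRNA libraries 1, 2 and 3, against 23.7, 21.01 and 13.3 TPM in controls 1, 2 and 3. Control library 3 falls among the ACSS2 shRNA libraries in TPM, and in CPM the groups do not overlap (28.2, 29.2 and 25.7 under the ACSS2 hairpin, 53.2, 43.2 and 29.5 in controls). Its paired log2 difference was -0.57 (SE 0.14, edgeR adjusted p = 0.0123) and the unpaired one -0.60 (SE 0.23, adjusted p = 0.302). Without number 1 the paired value was -0.40 (adjusted p = 0.0525).

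TMPO, which encodes the LAP2 proteins (gene ID 7112, chr12:98515512-98550379, plus strand), had 68.2, 55.2 and 37.9 TPM in ACSS2 shRNA libraries 1, 2 and 3, against 100.9, 84.3 and 42.3 TPM in controls 1, 2 and 3. It was lower under the ACSS2 hairpin within each number, while control library 3 lies below ACSS2 shRNA libraries 1 and 2. The paired log2 difference was -0.56 (SE 0.13, edgeR adjusted p = 0.00764) and the unpaired one -0.62 (SE 0.32, adjusted p = 0.430). Leaving out each number in turn kept the TMPO call (-0.73 to -0.47). NRM ranged from -2.27 to -1.48. Without number 3 the paired values were -2.27 for NRM, -0.74 for LBR, -0.73 for TMPO and -0.61 for LMNB2. Number 3 held the log2 ratio nearest 0 for each of these genes, so leaving it out moves the values away from 0. A link to the ACSS2 level was not tested.

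The other LEM-domain genes were not called. EMD (gene ID 2010, chrX:154379197-154381523, plus strand) had 79.5, 68.2 and 66.0 TPM under the ACSS2 hairpin, against 77.2, 66.6 and 69.5 TPM in controls (paired log2 fold change -0.11, SE 0.11, edgeR adjusted p = 0.506). LEMD3, whose product MAN1 binds receptor-regulated SMADs (gene ID 23592, chr12:65169571-65248327, plus strand), had 5.26, 4.15 and 3.09 TPM under the ACSS2 hairpin, against 4.85, 4.48 and 3.91 TPM in controls (-0.21, SE 0.15, adjusted p = 0.321). Both sets of values overlap. The sign for EMD is not settled either, since limma on log2(TPM + 1) gave 0.0012.

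Among the bridge proteins, SUN1 lay above all controls in each ACSS2 shRNA library without passing the test, and SUN2 overlapped. SUN1 (gene ID 23353, chr7:816615-896435, plus strand) had 54.0, 51.0 and 56.2 TPM in ACSS2 shRNA libraries 1, 2 and 3, against 42.5, 38.0 and 42.6 TPM in controls 1, 2 and 3. Its groups do not overlap in TPM or CPM. Of the 9 members other than NRM, 2 (LMNB2 and LBR) lie wholly lower in CPM and 1 (SUN1) wholly higher, beside 9.63% and 10.7% of all genes tested, or 20.3% in either direction. Nothing is read from these counts. The paired log2 fold change of 0.28 (SE 0.11, edgeR adjusted p = 0.0780) missed the threshold. Of 10 alternatives to the paired fit, 2 took SUN1 past the threshold. They were library totals in place of TMM factors (0.33, edgeR adjusted p = 0.0346) and limma on TPM with a pseudocount of 1 and the replicate block (0.38, adjusted p = 0.0437). In these 2 the median of all genes was itself at 0.076 and 0.11. The others missed it, among them DESeq2 with the block (0.25, adjusted p = 0.176) and RLE factors with the block (0.25, edgeR adjusted p = 0.111). SUN2 (gene ID 25777, chr22:38734725-38794143, minus strand) had 28.4, 30.3 and 28.3 TPM under the ACSS2 hairpin, against 25.9, 29.4 and 22.9 TPM in controls, and its CPM ranges overlap (paired log2 fold change 0.05, SE 0.12, adjusted p = 0.763). The ratio of SUN1 to SUN2 in TPM was 1.91, 1.68 and 1.99 in ACSS2 shRNA libraries 1, 2 and 3, against 1.64, 1.30 and 1.86 in controls 1, 2 and 3. The ratios overlap between groups but are higher under the ACSS2 hairpin within each number.

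**Figure D2:**
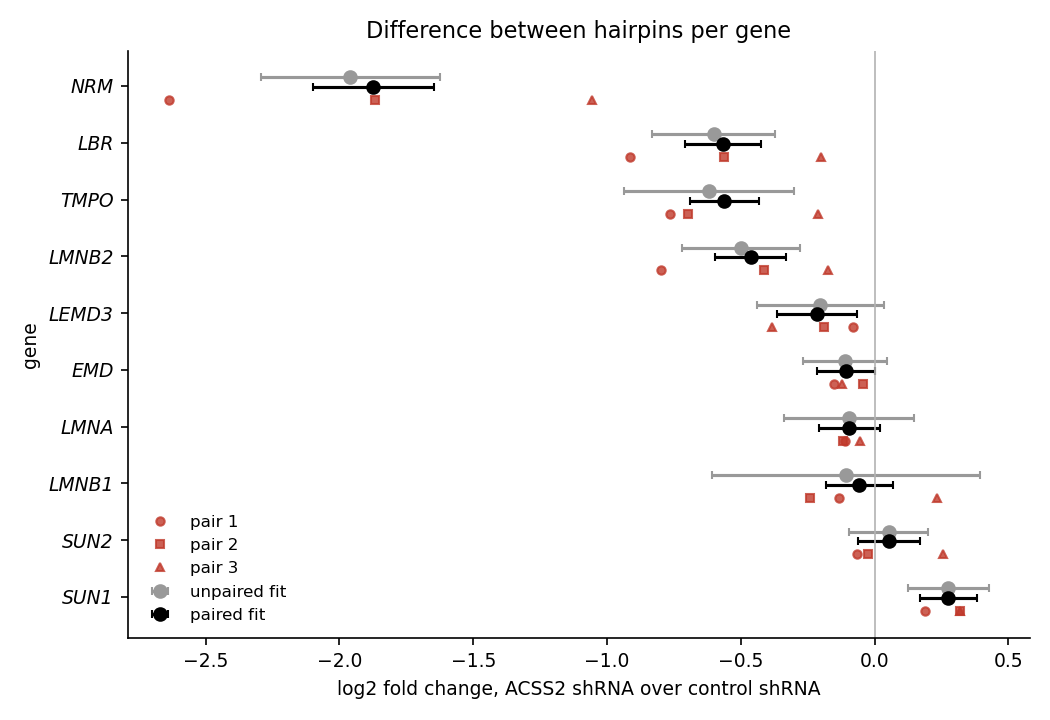
Log2 fold change of each gene, ACSS2 shRNA over control shRNA, from the unpaired fit (grey) and the paired fit (black), with bars of 1 SE, and the log2 CPM ratio within each replicate number (small red symbols). NRM lies near -1.9, TMPO, LBR and LMNB2 between -0.62 and -0.46, and for all 4 the ratio is furthest from 0 in pair 1 and nearest in pair 3.

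NRM and the 3 called genes share that order over the pairs. Log2 ratios within numbers 1, 2 and 3 were -0.91, -0.56 and -0.20 for LBR, -0.80, -0.41 and -0.17 for LMNB2, and -0.77, -0.70 and -0.21 for TMPO, beside those of NRM above. For ACSS2 itself they were -2.77, -0.49 and -0.88. With 1 library per hairpin and number, a difference between pairs could not be tested. In all 4 genes the controls spread more than the ACSS2 shRNA libraries: highest over lowest CPM was 1.14-fold under the ACSS2 hairpin against 1.80-fold in controls for LBR, 1.16-fold against 1.72-fold for LMNB2, and 1.62-fold against 2.38-fold for TMPO. This was not particular to the 4 genes. Controls also spread more for LMNB1 (2.89-fold against 3.73-fold), EMD (1.15-fold against 1.24-fold) and SUN2 (1.10-fold against 1.18-fold). SUN1 (1.17-fold in both) and LMNA (1.58-fold against 1.57-fold) were near even, and LEMD3 spread less in controls (1.54-fold against 1.25-fold). Of the 9 members other than NRM, 6 were lower under the ACSS2 hairpin in all 3 pairs and 1, SUN1, was higher in all 3, beside 27.3% and 30.5% of all genes tested, from which nothing is read.

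The replicate numbers give a second comparison, one not used to list the genes. An F test of the numbers in the paired fit called 3 of the 10 genes: LMNB1 (edgeR adjusted p = 3.7e-05), TMPO (0.00175) and LMNA (0.00618). That is a share near the 38.7% of all genes. LMNB1 in libraries numbered 1 was 3.27-fold above those numbered 3 (log2 fold change of 3 over 1 -1.71), and the same log2 difference was -0.97 for TMPO and -0.51 for LMNA. LMNB1 was thus the member with the largest spread that did not follow the hairpins: 75.1, 41.7 and 26 CPM under the ACSS2 hairpin and 82.4, 49.4 and 22.1 CPM in controls. EMD, SUN1 and SUN2 varied least, with at most 1.24-fold between the highest and lowest library of one hairpin. LMNB2 (adjusted p = 0.0518), LBR (0.0825), LEMD3 (0.123) and NRM (0.127) missed the threshold. The count of called genes was 2 without number 1, 5 without number 2 and 3 without number 3.

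Genes of mitosis were also lower under the ACSS2 hairpin in the paired fit. All 25 on the list were called lower there (24, 19 and 24 without numbers 1, 2 and 3), beside 12.4% of all genes tested. The list was chosen with results of these data known, so nothing is read from this count. The unpaired edgeR fit called none, and 7 had an unadjusted p under 0.05. The median log2 ratio of the mitosis genes within numbers 1, 2 and 3 was -0.72, -0.99 and -0.46. It was furthest from 0 in pair 2. NRM, LBR, LMNB2 and TMPO were furthest in pair 1, though TMPO was close in pairs 1 and 2 (-0.77 and -0.70). These orders rest on 1 library per hairpin and number and could not be tested. The summed level of the mitosis genes was 1902, 1435 and 863 TPM in ACSS2 shRNA libraries 1, 2 and 3. It was 3412, 2887 and 1209 TPM in controls 1, 2 and 3. Of the 25, 24 also differed between numbers. Like LMNB1, the sum was highest in library 1 and lowest in library 3 of each hairpin, while LMNB1 was not called between the hairpins. The part of these genes in the results for NRM, LMNB2, LBR and TMPO was not tested.

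**Figure D3:**
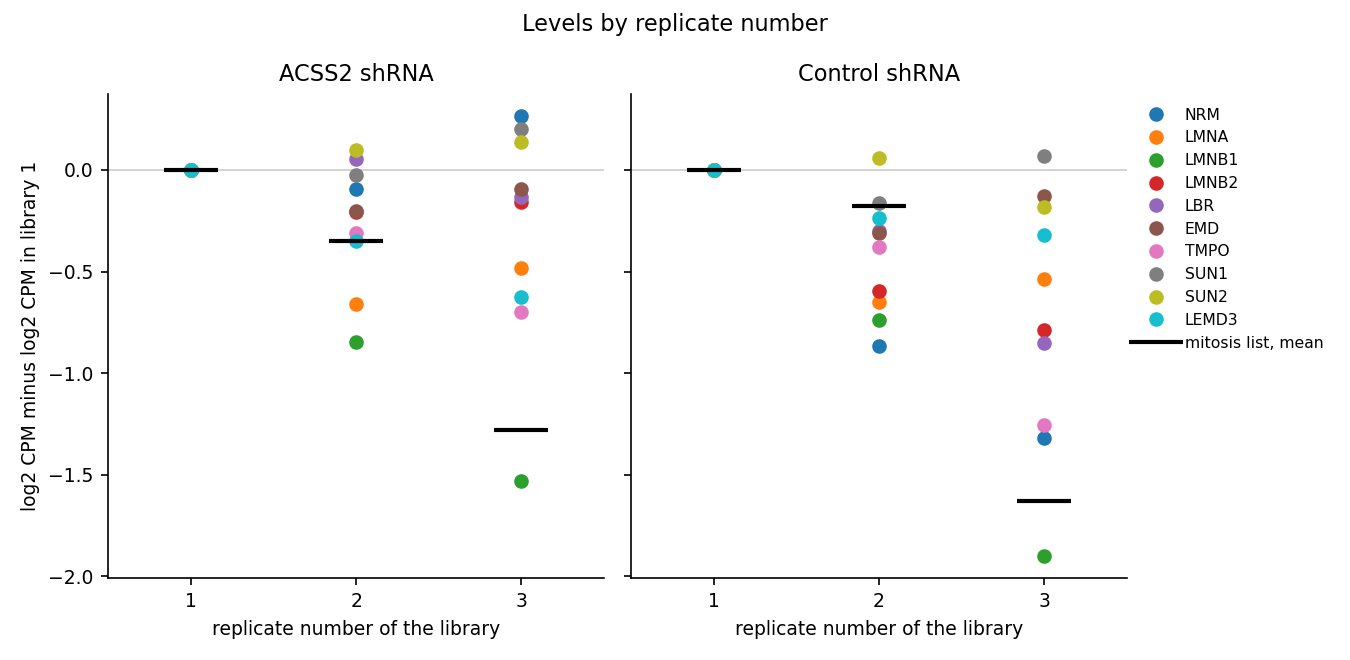
Log2 CPM of each gene in libraries 1, 2 and 3 minus that in library 1 of the same hairpin, ACSS2 shRNA left and control shRNA right, with the mean of 25 mitosis genes as a black bar. LMNB1 (green) is lowest in library 3 of both hairpins, and NRM (blue) lies far below 0 in control libraries only.

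The make-up of the lamina transcripts followed from these levels. LMNA gave 78.7%, 74.9% and 77.8% of summed lamin TPM in ACSS2 shRNA libraries 1, 2 and 3, against 71.8%, 71.0% and 76.8% in controls 1, 2 and 3. LMNB2 gave 13.1%, 17.9% and 17.9% under the ACSS2 hairpin and 20.3%, 21.4% and 19.7% in controls, and these ranges do not overlap. LMNB1 gave 8.17%, 7.15% and 4.30% under the ACSS2 hairpin and 7.95%, 7.61% and 3.56% in controls, which overlap. The ratio of LMNA to LMNB1 was 9.64, 10.5 and 18.1 under the ACSS2 hairpin and 9.03, 9.33 and 21.5 in controls, so it depends on the number in both. These are shares of transcripts and say nothing of protein.

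**Figure D4:**
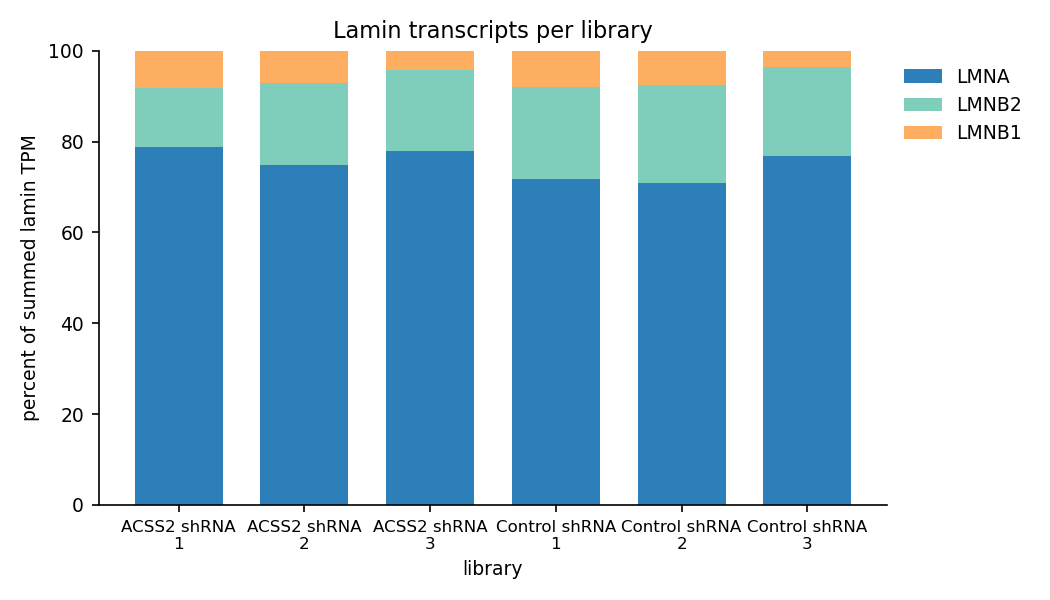
Share of summed lamin TPM from LMNA, LMNB2 and LMNB1 in each library, ACSS2 shRNA libraries left of control shRNA libraries. The LMNB2 share is 13.1% to 17.9% under the ACSS2 hairpin and 19.7% to 21.4% in controls, and the LMNB1 share is smallest in library 3 of each hairpin.

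Ordered by mean TPM over the 6 libraries, LMNA was highest (295 TPM, range 239 to 414) and LEMD3 lowest (4.29 TPM, range 3.09 to 5.26). LMNA exceeded the next gene, and LBR (16.6 TPM) exceeded LEMD3, in 6 of 6 libraries. In between came LMNB2 (71.2), EMD (71.1), TMPO (64.8), SUN1 (47.4), NRM (34.4), SUN2 (27.5) and LMNB1 (26.6 TPM). Each of these was above its next neighbour in 2 to 5 of 6 libraries, so that order is not settled beyond the spread. NRM ranked above SUN2 in 3 of 6 libraries, the 3 controls.

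Promoters were searched for motif words of cell-cycle genes, since LMNB1, TMPO and the mitosis list shared their order over numbers. RefSeq promoters (GRCh38.p14, 250 bases before to 50 after each start) were found for 9 of the 10 genes, all but SUN1. Words bound by E2F factors were searched on either strand, namely TTCCCGC, the variant TTGGCGC, another variant TTCGCGC, and lastly the variant TTGCCGC. They occur once in 1 of the 3 NRM starts (37 bases before it), in 1 of 3 LMNA starts (22 bases) and in LEMD3 (133 bases). Of all 35097 promoters 13% hold one, and 18.6% of those of tested genes. These shares and those below count promoters, and NRM and LMNA have 3 each, so they are not shares of genes. The cell-cycle homology words TTTGAA and TTCGAA, on either strand, occur once in LMNB2 and in 1 SUN2 start, against 16.4% of all promoters and 12% of those of tested genes. LMNB1 and TMPO hold neither the E2F nor the cell-cycle homology words. CCAAT, searched on either strand, occurs in 1 of 2 LMNB1 starts (138 bases before it), with 2 copies in each TMPO start, and in at least 1 start of LMNA, EMD, SUN2 and LEMD3. It is in 34.6% of all promoters and in the same share of those of tested genes. A word match is a description of the letters and does not show binding, and whether these words play a part was not tested. The NRM promoter with the match is printed with the E2F word in capitals, at chr6:30690935-30691234, minus strand, since NRM carries the largest difference.
NRM promoter: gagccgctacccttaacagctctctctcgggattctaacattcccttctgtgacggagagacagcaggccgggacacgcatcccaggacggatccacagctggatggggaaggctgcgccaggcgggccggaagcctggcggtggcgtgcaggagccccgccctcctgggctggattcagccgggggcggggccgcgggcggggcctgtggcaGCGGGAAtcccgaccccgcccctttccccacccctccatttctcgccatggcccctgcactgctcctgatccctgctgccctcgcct

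By pattern over the 6 libraries, the genes most like NRM among 10691 others with at least 5 CPM were PRELID1, KCTD21 and UNG (Pearson r of log2 CPM 0.998 each, n = 6). The correlation ignores the size of a change. Paired log2 fold changes were -0.66 for PRELID1, -0.47 for KCTD21 and -2.01 for UNG, against -1.87 for NRM. PRELID1 moves lipids in mitochondria, and UNG removes uracil from DNA. The genes most like LMNB1 were VANGL1, DNAJC9 and CDC25A (0.999, 0.998 and 0.997). CDC25A, a phosphatase that activates cyclin-dependent kinases, had 30.0, 16.8 and 10.7 CPM under the ACSS2 hairpin and 29.95, 18.7 and 9.88 CPM in controls. Those most like LMNA were UBAP2L, ZNF592 and MAP3K14 (0.993, 0.992 and 0.991). These points share hairpin and replicate number, so the correlations are a description only.

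Beyond the 10, 8 lists of other nuclear envelope genes held 87 names, of which 82 were tested (KASH5 and SUN5 were not analysed here). In the paired fit 21 were lower and 5 higher, or 31.7% in either direction. Of all genes tested 12.4% were lower and 12.7% higher, or 25.1%, and these shares stand beside each list count below. The median log2 fold change was -0.08 against 0.02 over all genes. The lists were chosen with results of these data known, so nothing is read from the counts. Without number 2 the counts were 15 lower and 1 higher, and without number 3 they were 26 and 3. The unpaired edgeR fit called none, with 18 at an unadjusted p under 0.05, so each call named next is from the paired fit alone. Among the list genes named with values, the groups overlap in CPM only for SPAG4, ICMT and CBX1. Of all genes tested, 20.3% do not overlap. Apart from CBX1, the genes given with values were named for the smallest paired p in their list, so the separation is no further evidence.

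Of 10 other inner membrane proteins tested, 1 was lower and none higher. That was NEMP1, a partner of emerin that supports nuclear envelope stiffness, with 2.85, 2.5 and 2.82 TPM in ACSS2 shRNA libraries 1, 2 and 3, against 9.38, 7.38 and 4.51 TPM in controls 1, 2 and 3 (log2 fold change -1.43, SE 0.20, edgeR adjusted p = 0.000446). Like NRM it was even under the ACSS2 hairpin and spread in controls. Among 5 KASH and other SUN proteins, nesprin-3 (SYNE3) was lower (-0.79, SE 0.14, adjusted p = 0.00202) and SPAG4, a SUN protein best known from testis, was higher (0.60, SE 0.19, adjusted p = 0.0365). Of 4 torsins, ATPases of the envelope and endoplasmic reticulum lumen, 1 was lower (TOR3A, -1.02, SE 0.18, adjusted p = 0.00190) and 2 (TOR1A and TOR2A) were higher.

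The enzymes that process farnesylated lamin tails gave 1 call of 5. ICMT, which methylates the tail, had 65.7, 36.6 and 28.9 TPM under the ACSS2 hairpin, against 45.9, 26.4 and 20.1 TPM in controls, higher within each number though the groups overlap (log2 fold change 0.39, SE 0.11, edgeR adjusted p = 0.0189). Of 13 genes of envelope reassembly and sealing, 4 were lower and none higher. BANF1 encodes BAF, the chromatin protein that LEM domains bind. It had 434, 514 and 479 TPM in ACSS2 shRNA libraries 1, 2 and 3, against 850.4, 763 and 815 TPM in controls 1, 2 and 3, with no overlap (-0.83, SE 0.12, adjusted p = 0.000660). The ESCRT-III subunit CHMP3 had 49.95, 38.7 and 28.3 TPM under the ACSS2 hairpin, against 61.5, 61.5 and 54.3 TPM in controls (-0.74, SE 0.12, adjusted p = 0.00106).

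Of 5 genes of the lipins and the phosphatase complex that activates them, 1 was higher and 1 (CTDNEP1) lower. LPIN1, which makes diacylglycerol from phosphatidate, had 65.7, 84.9 and 56.3 TPM under the ACSS2 hairpin, against 38.0, 40.6 and 31.7 TPM in controls, with no overlap (0.79, SE 0.12, edgeR adjusted p = 0.000654). Of 8 chromatin partners of the nuclear edge 3 were lower and none higher. They were SUV39H1 and the HP1 genes CBX3 and CBX5, to whose products LBR binds. The HP1 gene CBX1 was not called (0.10, SE 0.12, edgeR adjusted p = 0.571). CBX3 had 19.3, 26.7 and 19.4 TPM under the ACSS2 hairpin, against 38.8, 61.2 and 36.2 TPM in controls (-1.12, SE 0.12, edgeR adjusted p = 0.000117), and CBX5 changed by -0.58 (SE 0.12, adjusted p = 0.00549). CBX3 has processed pseudogenes that can share its reads, so its value is uncertain. Of 32 nucleoporins 10 were lower and none higher, with a median of -0.21. NUP214, on the cytoplasmic face of the pore, changed by -1.11 (SE 0.13, adjusted p = 0.000156) and SEC13, shared by the pore scaffold and the COPII coat, by -1.26 (SE 0.15, adjusted p = 0.000197). The other 8 were NUP155, NUP205, NUP85, NUP37, SEH1L, NUP153, NUP210 and NDC1. The paired median was -0.32 for reassembly and sealing genes and -0.03 for other inner membrane proteins. It was 0.30 for KASH and other SUN proteins, 0.21 for torsins and 0.18 for tail enzymes. The lipin list had 0.26 and the chromatin partners 0.08.

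In the authors' deposited table, made with DESeq2, the log2 fold changes were -1.99 for NRM, -0.65 for TMPO (q = 0.455), -0.63 for LBR (q = 0.270), -0.53 for LMNB2 (q = 0.397) and 0.25 for SUN1 (q = 0.748). For LEMD3, LMNB1, EMD, LMNA and SUN2 the authors' deposited table gives values between -0.23 and 0.03.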

How the data were processed

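The 6 RNA libraries, 3 per hairpin, were made and sequenced by BGI, whose protocol per the labels typically selects mRNA on oligo(dT) beads. RSEM, Bowtie2 and HISAT are listed in the submitters' processing notes with no version. The annotation they used is not stated there. The deposited table holds expected counts per gene and TPM made by the authors, 1 column per library. It also holds the authors' own DESeq2 comparison, deposited as p-value, q-value and log2 ratio per gene, with no settings recorded. The 6 FPKM columns were not used.

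The 565 lines of spilled annotation text were left out, and 26 symbols turned into dates were restored by gene ID. Between 10.47% and 13.01% of expected counts per library were not whole, and all were rounded. Tests used edgeR 4.0.16 in R 4.3.3 (quasi-likelihood F test, TMM, filterByExpr with minimum count 10 and minimum total 15, 13003 genes, Benjamini-Hochberg adjustment over all of them, threshold 0.05). SE is the absolute log2 fold change over the square root of F. The labels' batch tag pairs the libraries. Deviations from group means correlated across genes by 0.716, 0.494 and 0.74 for libraries 1, 2 and 3 of the 2 hairpins (0.1 was the least accepted), so the paired fit stands beside the unpaired one. Unpaired p-values measure the difference against the spread between libraries of one hairpin, which the labels call biological replicates. Paired p-values measure it against how evenly the difference repeats over the 3 numbers. The tests were also run on simulated counts, with the same spread for all genes and the same effect of number in both hairpins. That is the model of the paired fit, so the simulation is no evidence for that fit in these libraries.

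Alternatives were DESeq2 1.42.0, RLE factors, library totals, no low-count filter, limma 3.58.1 on log2(TPM + 1) and log2(TPM + 0.1), and leaving out libraries or numbers. The members, the gene lists and TGGGTC were chosen with earlier results of these data known. Genes named are the 10 members, the 2 called genes with the smallest paired p per list (1 from lists of under 6), the 3 genes most like NRM, LMNA and LMNB1 by correlation, the neighbours of NRM, and ACSS2. Other called list genes, CBX1 and markers were named after their values were seen.

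In the table, 9 of the 10 members have spans that overlap another gene, and the strand of 4 differs from GENCODE v29, whose coordinates are used instead. Whether counting used strand is not recorded.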

Additional observations from a re-analysis of the deposited data

How the results depend on the processing

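The replicate block decided the calls: it moved the unpaired count from 9 to 3265 genes and from 0 to 4 members, and without it the paired counts return to 9 and 0. These member counts include NRM, whose lower level chose it, so its share in them is no evidence. Unpaired, DESeq2 called 519 genes (214 higher and 305 lower) and 1 member, no low-count filter 39 genes and 1 member, and limma on log2(TPM + 0.1) 3 genes. Leaving out libraries or numbers gave 0 to 7 genes and 0 members unpaired, and 1646 to 3182 genes (the lowest without number 2) and 2 to 4 members (2 without number 1) paired. With the block, limma on log2(TPM + 0.1) called 1818 genes (1192 higher and 626 lower) and 1 member. With library totals the paired split was 2068 higher and 1364 lower, and with limma on log2(TPM + 1) 2082 higher and 982 lower, against 1657 and 1608. Between numbers, limma on log2(TPM + 0.1) called 2916 genes and leave-outs 2903 to 4337 genes and 2 to 5 members, while library totals and no low-count filter each called 5 members.

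Signs turned only for members not called. With limma on log2(TPM + 1), in either fit, LMNA was 0.065, LMNB1 0.056 and EMD 0.0012. With log2(TPM + 0.1) LMNA was 0.065, LMNB1 0.061 and EMD 0.0012, while the median of all genes was at 0.11 and 0.12. Unpaired leave-outs took LMNA from -0.33 to 0.13 (0.0053 without ACSS2 shRNA library 2), LMNB1 from -0.61 to 0.41 (0.19 without ACSS2 shRNA library 3) and SUN2 from -0.045 to 0.10 (-0.014 without control library 3). Paired leave-outs took LMNB1 from -0.19 to 0.0054 (without number 2) and SUN2 from -0.045 (without number 3) to 0.11. The cause was not tested. LMNB2, LBR and TMPO kept their direction in every alternative, with paired ranges of -0.61 to -0.30, -0.74 to -0.40 and -0.73 to -0.44. LMNB2 was called in 5, LBR in 7 and TMPO in 8 of 10 alternatives to the paired fit.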
